A study of Mus musculus with 6 samples.

Results

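The p53 pathway was examined through 10 genes of the FPKM table, chosen by symbol: Trp53, which encodes p53, and the 9 textbook targets Cdkn1a, Mdm2, Bax, Bbc3, Gdf15, Phlda3, Ccng1, Trp53inp1 and Zmat3. All 10 were among the 11789 genes listed, and all 10 passed the minimum mean of 1 FPKM, so they were 10 of 10696 genes tested. The libraries came from lung alveolar macrophages, the phagocytes that live in the air spaces, of C57BL/6 mice after an exposure that the labels write as BLM. There were 3 libraries of wild-type mice (BLM1, BLM2 and BLM3) and 3 of A20 conditional knockout mice (A20-1, A20-3 and A20-4). A20, the product of Tnfaip3, is a ubiquitin-editing enzyme that restrains NF-kB. The Cre driver, the deleted exons, age, dose, day of collection and any pooling of animals were not stated in those labels. No unexposed animals are among the 6 libraries, so the effect of the exposure itself on these genes was not measured here. The p-values below measure the spread between these libraries, part of which may be technical.

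BLM is the usual short form of bleomycin, a drug that breaks DNA and is used to scar the lung. p53 is a transcription factor that the ubiquitin ligase MDM2 keeps at a low level. After DNA damage, kinases free it from MDM2, and it then raises genes that stop the cell cycle, start apoptosis, repair DNA or feed back on p53 itself. The control acts mainly on the p53 protein, so the Trp53 transcript need not move when the pathway does.

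Values are FPKM, fragments scaled to transcript length and library size, which allows levels of different genes to be set side by side. The FPKM of a library summed to between 266094 and 294525, and the read depth behind them is unknown. Each difference is the knockout mean less the wild-type mean of log2(FPKM + 1), a scale on which changes of low genes look smaller than they are. A gene is called where limma's adjusted p, Benjamini-Hochberg over all genes tested, is under 0.05.

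Tnfaip3, the gene named in the knockout label, overlapped between the groups. In A20-1, A20-3 and A20-4 it had 8.44, 12.9 and 6.80 FPKM, against 4.47, 2.18 and 21.6 in the 3 wild-type libraries, taken in the order BLM1, BLM2, BLM3. Its difference was 0.46 ± 0.69 (SE, n = 3 libraries per group, limma adjusted p = 0.734), and 1.27 without BLM3 (adjusted p = 0.0797), where each knockout library was above both wild-type ones. Whole-gene FPKM cannot check a deletion of unknown exons, so the directions below are between libraries as labelled. Every one of 14 alveolar macrophage markers was above 0 in all 6 libraries, with sums of 5664 to 8053 FPKM in the knockout and 4038 to 7206 in the wild type. Of their differences 11 were positive and 3 negative, with a median of 0.72, beside 0.02 for all genes tested. At an unadjusted p under 0.05 there were 8, where 20.3% of all genes were. With 6 libraries 1 gene fell, Marco, where 0.851% of all genes did. Marco was named after its values were seen and was not called after rescaling to TPM or quantile normalization. Without BLM3 the median was 0.26, and 3 genes rose and 2 fell, where 1.35% and 2.50% of all genes did. Library BLM3 stood apart. Its 6 neutrophil markers summed to 2738 FPKM, against 126 in BLM1, 119 in BLM2 and 51.7 to 87.4 in the knockout libraries, with Ly6g at 0 in A20-3, A20-4, BLM1 and BLM2 and Retnlg at 0 in BLM2. The monocyte and recruited macrophage markers (10 symbols on 11 gene IDs) summed to 1989 to 2214 FPKM in the wild type and 635 to 789 in the knockout. Epithelial markers (7) summed to 67.3 to 201 in the wild type and 296 to 390 in the knockout. Sums of the 8 T and NK cell rows were 156 to 284 against 215 to 233, of the 4 B cell genes 10.2 to 81.2 against 11.2 to 19.0, of the 3 fibroblast and endothelial genes 3.47 to 7.60 against 2.32 to 5.63, and of the 5 erythroid genes 317 to 2484 against 188 to 3551. In bulk RNA, fewer cells of a type and less RNA per cell cannot be told apart. Results that rest on BLM3 are given with and without it.

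Of the 10 genes, 0 were called with 6 libraries by limma, where 1.10% of all genes tested were called (0.851% lower and 0.252% higher in the knockout). At an unadjusted p under 0.05 there was 1, Phlda3, where 20.3% of all genes were. Without BLM3, 1 of 10 was called, again Phlda3, which was lower in the knockout, where 3.84% of all genes were called in either direction and 2.50% in that direction (1.35% were higher). The values of the groups did not overlap for 2 of 10, Mdm2 and Phlda3, both lower in the knockout, as against 29.0% of all genes in either direction and 13.1% in that direction. With 6 libraries 7 differences were negative and 3 positive, and the median was -0.06, beside 0.02 for all genes tested. The number of all genes called moved with single libraries, from 118 with all 6 to 35 without A20-1, 0 without A20-3 (1694 at an unadjusted p under 0.05), 14 without A20-4, 4 without BLM1, 92 without BLM2 and 411 without BLM3. A member's missing call is therefore no evidence of equal levels, and the 95% interval of each difference is given.

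**Figure D1:**
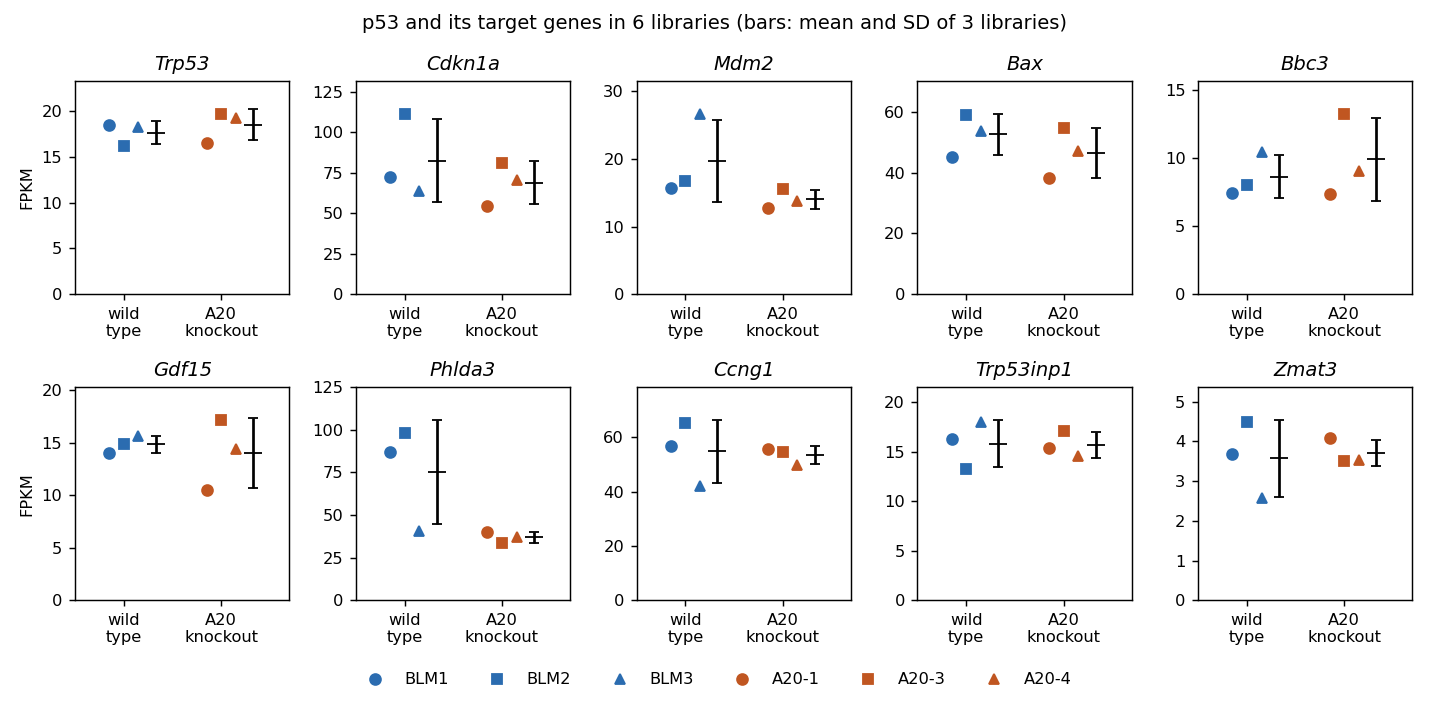
FPKM of Trp53 and its 9 targets (vertical axes, from 0) in 3 wild-type libraries (blue) and 3 A20 knockout libraries (orange), with the mean and SD of each group in black. Phlda3 is high in BLM1 and BLM2 (87.1 and 98.4) and low in BLM3 (40.8) and in the knockout libraries (33.7 to 39.8), while Trp53 stays between 16.2 and 19.7.

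Phlda3 (ENSMUSG00000041801.5, GRCm38 chromosome 1, 135766119 to 135769136, plus strand) showed the widest gap among the 10. Its product is a small pleckstrin homology domain protein that competes with AKT for membrane lipids and so restrains AKT. The wild-type libraries BLM1, BLM2 and BLM3 had 87.1, 98.4 and 40.8 FPKM, and A20-1, A20-3 and A20-4 had 39.8, 33.7 and 37.1. BLM1 and BLM2 were high, and BLM3 lay just above the highest knockout library, so the groups did not overlap but came within about 1 FPKM of each other. The means were 75.4 ± 30.5 in the wild type and 36.9 ± 3.04 in the knockout (SD, n = 3), a ratio of 2.05. The log2 difference was -0.92 ± 0.32 (SE, 95% interval -1.69 to -0.15) and was not called (limma adjusted p = 0.185). Without BLM3 the wild-type mean was 92.7, which was 2.51 times the knockout mean, and Phlda3 was lower in the knockout by a called difference of -1.31 ± 0.11 (SE, interval -1.58 to -1.03, limma adjusted p = 0.011). Leaving out BLM3 was chosen as a check with the earlier results of these libraries known.

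The monocyte and recruited macrophage markers were, like Phlda3, higher in the wild type. Within the wild type, alveolar macrophage markers summed to 5993, 7206 and 4038 FPKM in BLM1, BLM2 and BLM3. Epithelial markers summed to 178, 201 and 67.3, and both lists had the order of Phlda3. In the knockout, where Phlda3 was at 33.7 to 39.8 FPKM, these sums were 5664 to 8053 and 296 to 390. Neutrophil markers were high in BLM3, where Phlda3 was 0.440 times the mean of BLM1 and BLM2. The monocyte and recruited macrophage markers were as high in BLM3 (2142 FPKM) as in BLM1 and BLM2 (1989 and 2214), and Phlda3 in BLM3 was near the knockout level. The part of these cells in the Phlda3 result was not tested.

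The sequence upstream of Phlda3 is shown because this gene alone among the 10 was called, without BLM3. That of Cdkn1a is shown because the window before its upstream start held the most matches to the p53 consensus among these genes. The p53 consensus decamer is a 10-base unit, the same on both strands, that p53 binds in pairs. It was searched in the 250 bases before each RefSeq transcription start (GRCm38.p6). RefSeq windows matched 8 of the 10 genes by symbol (12 windows), all but Trp53inp1 and Zmat3. The decamer was found for 5 of these 8 genes, Cdkn1a, Mdm2, Bax, Ccng1 and Trp53, beside 8.20% of 27025 gene symbols in the same table. By window it was 5 of 12, beside 7.13% of 32851. A match to the letters is a description, not a binding site. The sequences below run 5′ to 3′ on the gene's strand, with the decamer in capitals. The first 240 bases of the window are given for Phlda3 (chr1:135765835-135766074, plus strand) and for Cdkn1a (chr17:29090729-29090968, plus strand).
Phlda3: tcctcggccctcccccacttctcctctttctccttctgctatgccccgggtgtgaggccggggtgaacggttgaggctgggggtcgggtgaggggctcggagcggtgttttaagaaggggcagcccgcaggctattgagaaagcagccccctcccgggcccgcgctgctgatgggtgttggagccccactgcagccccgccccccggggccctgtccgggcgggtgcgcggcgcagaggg
Cdkn1a: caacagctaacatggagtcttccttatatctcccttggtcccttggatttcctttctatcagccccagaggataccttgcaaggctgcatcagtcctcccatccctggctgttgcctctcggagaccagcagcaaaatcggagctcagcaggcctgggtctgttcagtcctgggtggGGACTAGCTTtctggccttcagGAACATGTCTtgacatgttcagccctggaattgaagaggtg
The Phlda3 window held 0 matches, which says only that the letters are not in these bases. The Cdkn1a window shown held 2, beginning 73 and 51 bases before the upstream start at 29090979. The window before its other start, at 29093769, held 0. Over all windows 0.259% held 2 or more. The Cdkn1a window was chosen for its count, so that share is a description. The other 4 genes with a match are given as 30 bases around the decamer, which began 186 bases before the start in Mdm2 (chr10:117710925-117710954, minus strand), 201 in Bax (chr7:45467080-45467109, minus), 185 in Ccng1 (chr11:40755452-40755481, minus) and 75 in Trp53 (chr11:69580274-69580303, plus).
Mdm2: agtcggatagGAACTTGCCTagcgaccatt
Bax: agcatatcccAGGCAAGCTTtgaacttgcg
Ccng1: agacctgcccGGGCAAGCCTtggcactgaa
Trp53: acccacggaaGGACTTGCCCttacttgtta
Of the 5 genes with a match, 0 were called with 6 libraries or without BLM3, where 1.10% and 3.84% of all genes were. So few genes cannot show whether a match goes with a call.

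Trp53 itself (chromosome 11, 69580359 to 69591873) was the steadiest of the 10. BLM1, BLM2 and BLM3 had 18.5, 16.2 and 18.3 FPKM, and the knockout libraries, in the order A20-1, A20-3, A20-4 used throughout, had 16.6, 19.7 and 19.3. The groups overlapped, and all 6 values lay within 0.27 log2 units. The difference was 0.06 ± 0.11 (SE, interval -0.21 to 0.33, limma adjusted p = 0.778). It gave 0.09 without BLM3 (interval -0.20 to 0.38).

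Among the genes that feed back on p53, Mdm2 (chromosome 10, 117688875 to 117710758), whose product marks p53 for degradation, had 15.7, 16.7 and 26.7 FPKM in the 3 wild-type libraries. In the knockout it had 12.8, 15.5 and 13.8. The groups did not overlap, but A20-3 and BLM1 were nearly level, and BLM3 alone was high, at 1.65 times the mean of BLM1 and BLM2. The difference was -0.43 ± 0.21 (SE, interval -0.92 to 0.07, limma adjusted p = 0.303). Without BLM3 it was -0.19 (interval -0.47 to 0.09, adjusted p = 0.363), so the larger value rested on the library with the neutrophil markers, whose part was not tested. Ccng1 (chromosome 11, 40748552 to 40755311), cyclin G1, which recruits a phosphatase to MDM2, was at 56.8, 65.3 and 42.2 FPKM in the wild type and 55.8, 54.6 and 49.8 in the knockout. Here BLM3 was the lowest of all 6 libraries, and the difference of -0.02 (interval -0.42 to 0.39, limma adjusted p = 0.967) changed sign with the scaling, being 0.068 after rescaling to TPM and 0.013 after quantile normalization.

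Cdkn1a (ENSMUSG00000023067.13, chromosome 17, 29090979 to 29100722, plus strand) encodes p21, the inhibitor of cyclin-dependent kinases through which p53 halts the cell cycle. Wild-type values were 72.0, 111 and 63.6 FPKM, and knockout values 54.6, 81.0 and 70.5. BLM2 was the highest and A20-1 the lowest library, and the groups overlapped. The means were 82.4 ± 25.5 and 68.7 ± 13.3 (SD, n = 3), and the difference was -0.23 ± 0.24 (SE, interval -0.82 to 0.35, limma adjusted p = 0.614). Leaving out BLM2 brought it to 0.0022 and leaving out BLM3 to -0.40 (adjusted p = 0.351). In GENCODE M21 its exons share 273 bases with AC167363.2 on the opposite strand, and whether the counting used strand is not known here.

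The apoptotic arm was measured through Bax and Bbc3. Bax (chromosome 7, 45461697 to 45466898), which permeabilises the outer mitochondrial membrane, was at 45.2, 58.9 and 53.6 FPKM in the wild type and 38.1, 54.5 and 47.2 in the knockout. The groups overlapped, with a difference of -0.18 ± 0.17 (SE, interval -0.57 to 0.22, limma adjusted p = 0.576). Its exons share 192 bases with Gm45808 on the same strand, so its level is uncertain to that extent. Bbc3 (chromosome 7, 16308393 to 16318205), which encodes PUMA, a protein that frees BAX from its inhibitors, was at 7.45, 7.996 and 10.4 FPKM in the wild type and 7.34, 13.3 and 9.07 in the knockout. A20-3 was the highest library and A20-1 the lowest, both of them knockout, and the difference was 0.16 (interval -0.37 to 0.68, limma adjusted p = 0.721). Without A20-3 it was -0.057.

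Gdf15 (chromosome 8, 70629393 to 70632456), a secreted member of the TGF-beta superfamily that p53 and the integrated stress response both raise, was at 14.0, 14.8 and 15.7 FPKM in the wild type. In the knockout it was at 10.5, 17.2 and 14.4, a range that enclosed all 3 wild-type values. The difference was -0.10 (interval -0.52 to 0.32, limma adjusted p = 0.778). Trp53inp1 (chromosome 4, 11156431 to 11174379), a nuclear and autophagy protein that promotes p53 activity, was at 16.3, 13.2 and 18.0 FPKM in the wild type and 15.4, 17.1 and 14.6 in the knockout, and the groups overlapped (difference -0.0044, interval -0.33 to 0.32, limma adjusted p = 0.988). After rescaling to TPM it was 0.078. Zmat3 (chromosome 3, 32334792 to 32366014), a zinc finger protein that binds RNA and alters splicing, was the lowest of the 10 at 3.67, 4.49 and 2.57 FPKM in the wild type and 4.08, 3.50 and 3.54 in the knockout. Its difference was 0.06 (interval -0.36 to 0.48, limma adjusted p = 0.866) and -0.11 without BLM3, the library where it was lowest.

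**Figure D2:**
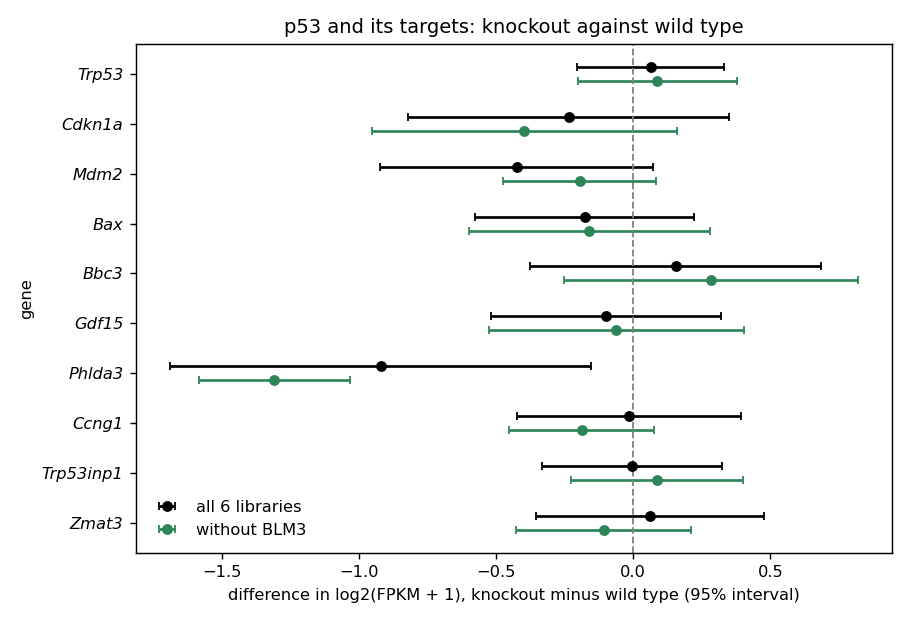
Difference in log2(FPKM + 1), knockout minus wild type, of each gene (horizontal axis), with its 95% interval from limma, for all 6 libraries (black) and without BLM3 (green). The interval of Phlda3 narrows from between -1.69 and -0.15 to between -1.58 and -1.03, and without BLM3 it is the only interval that excludes 0.

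By level over all 6 libraries, Cdkn1a led with a mean of 75.5 FPKM. Phlda3 (56.2), Ccng1 (54.1) and Bax (49.6) followed, and the ranges of neighbours in this order overlapped. Phlda3 was above Ccng1 in only 2 of 6 libraries, BLM1 and BLM2, and its knockout mean of 36.9 FPKM was below those of Ccng1 (53.4) and Bax (46.6). Below a gap came Trp53 (18.1), Mdm2 (16.9), Trp53inp1 (15.8) and Gdf15 (14.4), again with overlapping ranges, and Mdm2 was above Trp53inp1 in only 2 of 6 libraries. Bbc3 (9.25) was below Gdf15 in 6 of 6 libraries, although their ranges overlapped. The ranges of Bax and Trp53, and those of Bbc3 and Zmat3 (3.64), did not overlap.

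The 10 genes did not move as a block from library to library. BLM2 held the highest value of 5 of them (Cdkn1a, Bax, Phlda3, Ccng1 and Zmat3), A20-3 of 3 (Trp53, Bbc3 and Gdf15) and BLM3 of 2 (Mdm2 and Trp53inp1). A20-1 held the lowest value of 5, namely Cdkn1a, Mdm2, Bax, Bbc3 and Gdf15. BLM3 was lowest for Ccng1 and Zmat3, and BLM2, which was highest for 5 genes, was lowest for Trp53 and Trp53inp1. The median deviation of the 10 genes from their own means ran from -0.30 log2 units in A20-1 to 0.15 in BLM2.

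**Figure D3:**
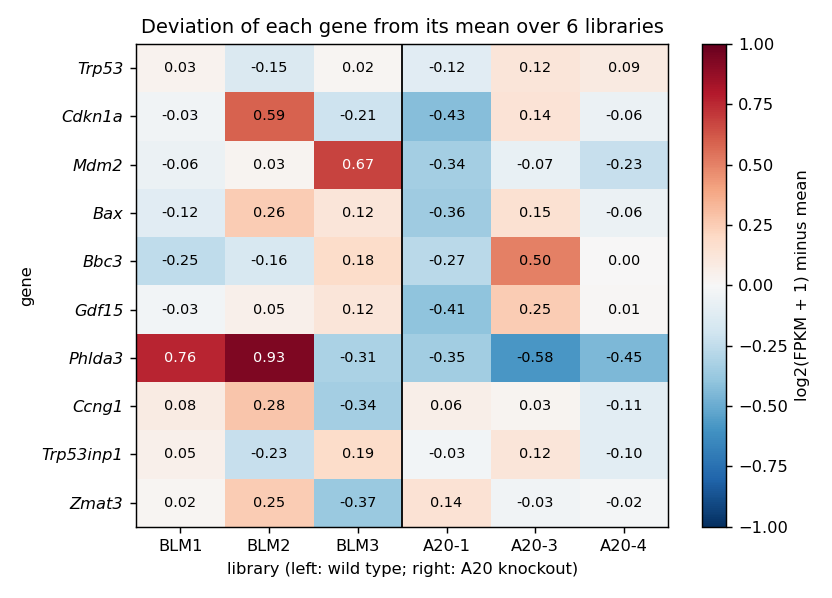
Deviation of each gene (rows) in each library (columns) from its own mean over 6 libraries, in log2(FPKM + 1) units, red above and blue below the mean. The largest values are those of Phlda3 in BLM2 (0.93) and BLM1 (0.76) and of Mdm2 in BLM3 (0.67), and no column has a single colour throughout.

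For the 3 genes whose values spanned more than 1 log2 unit, the nearest profiles among all genes tested were found by the root mean square difference of centred log2(FPKM + 1) values over the 6 libraries. Nearest to Phlda3 were Xcr1 (0.131) and Lpl (0.149). Xcr1 was low, at 2.95, 3.26 and 0.825 FPKM in the wild type and 1.03, 0.433 and 0.404 in the knockout. At such levels the added 1 makes changes look smaller than they are. Lpl, lipoprotein lipase, 1 of the 3 alveolar macrophage markers with a negative difference (-0.80, limma adjusted p = 0.240, or -1.16 without BLM3, adjusted p = 0.0318), was at 360, 358 and 169 FPKM in the wild type and at 205, 134 and 150 in the knockout, so that BLM3 again lay with the knockout libraries. Nearest to Mdm2 were Rasa4 (0.048) and Rps24 (0.056), a ribosomal protein gene whose reads may be shared with its pseudogenes. Nearest to Cdkn1a were Psrc1 (0.108), itself on the list of other p53 targets read below, and Nenf (0.111). With 6 libraries and 10696 genes, close profiles also arise between unrelated genes, so these are descriptions.

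The wider pathway was read from lists of genes. Of 33 tested other p53 targets, 0 were called with 6 libraries by limma, where 1.10% of all genes were. At an unadjusted p under 0.05 there were 8, beside 20.3% of all genes. Of the 33 differences 14 were positive and 19 negative, and the median was -0.06. Without BLM3 4 of 33 fell and 0 rose, as against 2.50% of all genes falling. They were Plk2, Plk3, Ak1 and Dcxr, of which Dcxr was named after its values were seen. Plk2, a polo-like kinase of the stress response, had 6.07, 5.18 and 14.9 FPKM in the wild type and 1.89, 2.33 and 2.52 in the knockout. The groups did not overlap, and the difference was -1.45 ± 0.35 (SE) with 6 libraries (limma adjusted p = 0.104) and -1.03 without BLM3 (adjusted p = 0.0221). Its relative Plk3 was at 29.1, 26.7 and 45.6 FPKM against 16.4, 18.3 and 16.6, a difference of -0.90 (limma adjusted p = 0.0954) or -0.67 without BLM3 (adjusted p = 0.0284). In BLM3, where Phlda3 was low, Plk2 and Plk3 were at their highest. The adenylate kinase gene Ak1 was low throughout, at 2.23, 1.596 and 1.10 FPKM against 0.532, 0.312 and 0.269 (-0.93, limma adjusted p = 0.0796, or -1.08 without BLM3, adjusted p = 0.0246). Dcxr, a sugar reductase gene, was at 20.3, 25.0 and 13.9 FPKM against 15.1, 13.5 and 13.4 (-0.43, limma adjusted p = 0.293, or -0.65 without BLM3, adjusted p = 0.0462), with BLM3 between A20-3 and A20-1. Tnfrsf10b was listed but below the minimum mean.

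Of 23 tested regulators of p53, 0 were called by limma with 6 libraries and 0 without BLM3, beside 1.10% and 3.84% of all genes. At an unadjusted p under 0.05 there were 3 with 6 libraries, beside 20.3% of all genes. The median was 0.13, with 18 positive and 5 negative differences, beside 5663 positive among all 10696 genes. The smallest p belonged to the acetyltransferase Ep300, a p53 coactivator, at 10.5, 9.18 and 9.998 FPKM in the wild type and 15.3, 12.1 and 14.1 in the knockout (difference 0.44, limma adjusted p = 0.123). The checkpoint kinase gene Chek2 had 0.36 (adjusted p = 0.231) and the acetyltransferase gene Kat5 -0.27 (adjusted p = 0.236).

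Of 17 genes of the BCL2 family and the caspase arm, 0 were called with 6 libraries by limma, beside 1.10% of all genes. At an unadjusted p under 0.05 there was 1, beside 20.3% of all genes, and the median of the 17 was -0.12. Without BLM3, 1 of 17 rose, where 1.35% of all genes did. It was Bmf, which encodes a BH3-only protein that promotes apoptosis. Bmf had 8.70, 8.93 and 5.05 FPKM in the wild type and 14.7, 13.0 and 13.0 in the knockout. All 3 knockout libraries lay above the wild type, by 0.80 with 6 libraries (limma adjusted p = 0.114) and 0.57 without BLM3 (adjusted p = 0.0453). The survival gene Mcl1 was at 189, 203 and 309 FPKM against 247, 352 and 339 (0.44, limma adjusted p = 0.338), and Bid, which links death receptors to mitochondria, had -0.37 (adjusted p = 0.349).

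The integrated stress response shares Gdf15 as a target with p53. Of its 9 tested genes 0 were called by limma with 6 libraries or without BLM3, beside 1.10% and 3.84% of all genes. At an unadjusted p under 0.05 there were 2 with 6 libraries, beside 20.3% of all genes, and the median of the 9 was -0.06. Atf3, a stress-induced transcription factor, was at 60.1, 40.3 and 77.0 FPKM in the wild type and 14.1, 22.0 and 24.3 in the knockout. The groups were well apart, yet the difference of -1.49 ± 0.29 (SE) was not called, with all libraries (limma adjusted p = 0.0718) or without BLM3 (-1.28, adjusted p = 0.0519). Cebpg, a partner of stress-induced leucine zipper factors, was higher in each knockout library, at 27.3, 38.5 and 32.5 FPKM against 17.6, 20.4 and 14.7 (0.86, limma adjusted p = 0.0748). Ppp1r15a, a phosphatase subunit that ends the response, had -0.68 with 6 libraries (adjusted p = 0.425) and -0.16 without BLM3. It stood at 20.04 FPKM in BLM3 and between 4.25 and 7.60 in the other 5 libraries.

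Cell cycle genes that fall when p21 is active were read last. Of 16 tested, 0 were called by limma with 6 libraries or without BLM3, beside 1.10% and 3.84% of all genes. At an unadjusted p under 0.05 there were 3 with 6 libraries, beside 20.3% of all genes. The median was 0.16, and 13 differences were positive and 3 negative, beside 5663 positive among all 10696 genes. Without BLM3 the median was 0.06. Cdc20, Rrm2, Ccna2, Ccnb2 and Ccnb1, named after their values were seen, then turned negative, between -0.053 and -0.011. Foxm1, a transcription factor of mitotic genes, was at 0.469, 0.944 and 0.432 FPKM in the wild type and 1.32, 3.14 and 2.15 in the knockout (0.96, limma adjusted p = 0.109). Top2a, topoisomerase II alpha, was at 4.55, 8.15 and 4.71 FPKM against 9.83, 8.51 and 8.29 (0.57, adjusted p = 0.197), with BLM2 close to the knockout libraries. E2f1, which drives entry into S phase, was at 8.56, 11.3 and 6.83 FPKM against 11.6, 13.4 and 12.3 (0.46, adjusted p = 0.212).

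**Figure D4:**
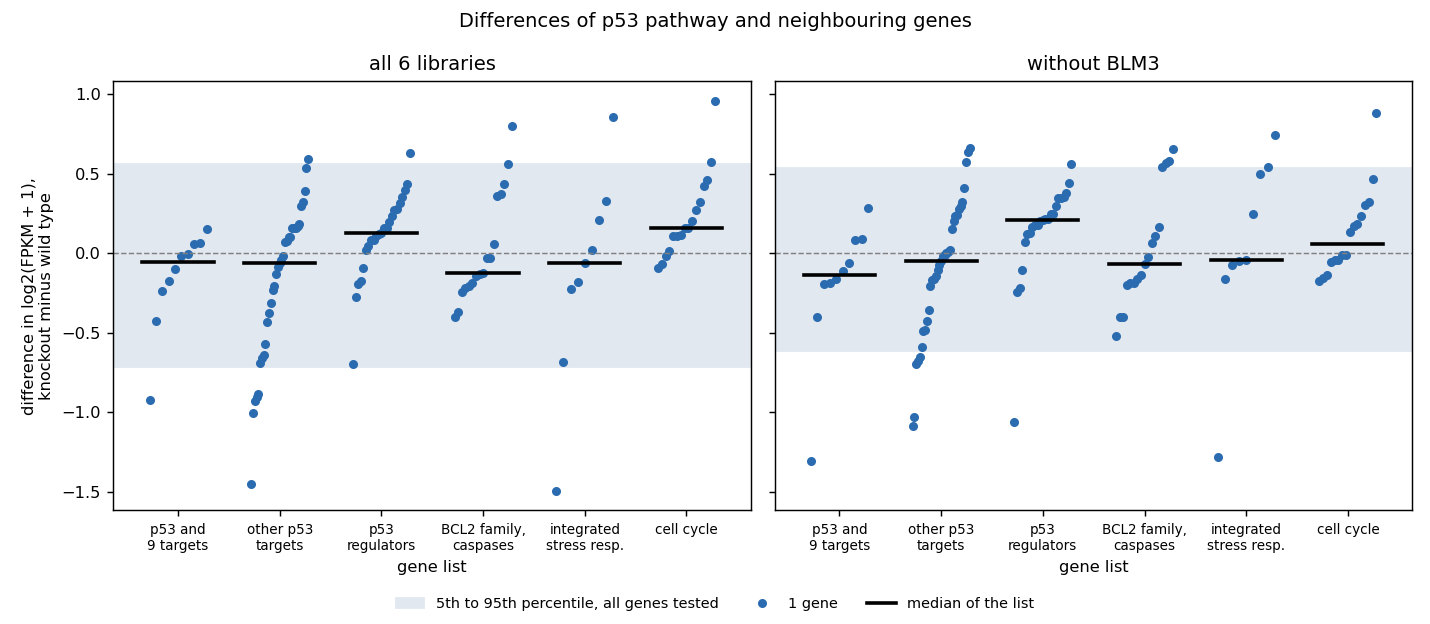
Difference in log2(FPKM + 1), knockout minus wild type, of every tested gene of the p53 lists (points), with the median of each list (black line), for all 6 libraries (left) and without BLM3 (right). The grey band spans the 5th to 95th percentile of all genes tested, from -0.71 to 0.56 on the left, and the list medians lie between -0.12 and 0.16 there.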

How the data were processed

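RNA was measured by sequencing in 6 libraries, 3 per group. The deposited values are FPKM per gene, computed by the authors, per the file headers. Per the submitters' processing notes, reads were placed on GRCm38. For aligner, quantifier and annotation: not given in the sources used here. Libraries were prepared with a stranded kit from total RNA, per the labels' protocols. Columns with A20 in their names were matched to the knockout. Those with only BLM, the exposure that all samples shared, were matched to the wild type as the only other group. The numbers in the column names were not tied to the replicate numbers of the titles. The listed genes are of 1 type, protein-coding, and each had a mean of at least 0.500 FPKM in its higher group. Low values showed no steps of whole reads, so depth is unknown and counting error cannot be stated.

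Genes averaging at least 1 FPKM were tested on log2(FPKM + 1) with limma 3.58.1 in R 4.3.3 (eBayes with trend, two-sided, Benjamini-Hochberg over all genes tested), after the fit was tested on simulated data. No library pair held identical values. Alternatives changed the pseudocount, filter, scaling, weights, trend or libraries. Named genes are the 10 members, Tnfaip3, every call and the 3 smallest p of each list, and the 2 nearest profiles. The members and lists were chosen with earlier results of these data known, so their counts are descriptions. Symbols were matched to GENCODE M21 by gene ID, and upstream sequences come from RefSeq (GRCm38.p6).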

Additional observations from a re-analysis of the deposited data

How the results depend on the processing

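With 6 libraries 27 genes rose and 91 fell over all genes tested. The counts were 17 and 58 with a minimum mean of 5 FPKM, 942 and 992 with array weights, and from 0 to 144 and from 0 to 267 with single libraries left out (lowest without A20-3, highest without BLM3). Rescaling to TPM gave 41 rises and 64 falls, so that 39.0% of calls were rises against 22.9% as deposited. The count of called members moved from 0 to 1 with array weights, which again was Phlda3 (-1.20, limma adjusted p = 0.00672), and ran from 0 to 1 with single libraries left out. Array weights also moved the counts of called genes from 0 to 7 of the other p53 targets, 4 of the p53 regulators, 3 of the BCL2 and caspase genes, 4 of the stress response and 3 of the cell cycle genes, where 18.1% of all genes tested were called, while leaving out single libraries gave 0 to 4 of the other targets and 0 to 1 of the BCL2 and caspase genes. For 139 values of the members over 14 alternatives, 122 kept their direction and side of the threshold, 2 (both Phlda3) passed it and 15 changed sign. With scaling or weights the sign changed for Ccng1 (0.068 under TPM, 0.013 with quantile normalization), Trp53inp1 (0.078 under TPM) and Zmat3 (-0.0088 with array weights). With single libraries left out, Cdkn1a ran from -0.40 to 0.0022, Bbc3 from -0.057 to 0.33, Gdf15 from -0.25 to 0.080, Ccng1 from -0.19 to 0.12, Trp53inp1 from -0.12 to 0.087, Zmat3 from -0.11 to 0.20 and Tnfaip3 from -0.14 to 1.27. Phlda3 ran from -1.31 to -0.68, with limma adjusted p between 0.011 and 0.410. The causes were not tested. With a minimum mean of 5 FPKM, Zmat3 was not among the genes tested. No paired analysis was possible because the numbers in the column names could not be tied to the replicate numbers of the titles (knockout columns 1, 3 and 4 against titles 1 to 3). Unknown depth leaves the precision of low genes such as Zmat3 and Ak1 unstated.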

Other observations

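Library BLM3 held high values of several p53 targets outside the 10 genes above. Among 33 other p53 targets tested, 7 were higher in BLM3 than in each of the other 5 libraries and more than 1 log2 unit above the mean of BLM1 and BLM2, or 21.2%, beside 4.55% of all genes tested. The genes were chosen after their values were seen, and 1 library gives no test. They were Ddit4, an inhibitor of mTORC1, at 25.1 FPKM in BLM3 and 5.01 to 9.41 elsewhere, Ninj1 at 43.2 against 6.43 to 15.2, the BH3-only gene Pmaip1 at 28.1 against 6.43 to 10.6, the antiproliferative gene Btg2 at 85.9 against 31.5 to 60.6, Plk2 at 14.9 against 1.89 to 6.07, the death receptor gene Fas at 24.8 against 9.35 to 14.3, and the growth arrest gene Gadd45a at 18.1 against 3.72 to 7.38. By the same rule 1 was lower, or 3.03% beside 2.13% of all genes tested. It was Perp, a desmosome component and apoptosis effector, at 11.2 FPKM against 23.7 to 32.5. Of the 10 genes above, 0 met the rule in either direction. Neutrophil markers were high in the same library, and their part in these values was not tested.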
